A study of Homo sapiens with 15 samples.

Results

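The 40 genes described here act in mitosis, the stage at which a cell condenses its copied chromosomes, attaches them to a spindle and divides. They were taken by symbol from the platform annotation of the arrays, and all 40 were found among the 12149 genes measured. Each gene stands for its single-gene probe set with the highest mean, and its level is the deposited log2 value, so a difference of 1 is 2-fold. RNA levels were measured on arrays in 15 samples of HMT3522, a progression series of human breast epithelial lines, cultured in laminin-rich extracellular matrix (lrECM) in 3 dimensions. S1 is the nonmalignant line of the series (3 samples) and T4 its malignant line (3 samples). The 9 samples called T4R are T4 cells that the labels name reverted, 1 sample for each agent. The protease inhibitors were GM6001, an inhibitor labelled MMPs and ADAMs, and TNF protease inhibitor-2. PD98059 inhibits the MAP kinase pathway and LY294002 inhibits PI3 kinase. Tyrphostin AG 1478 and the antibody mAb225 act against the epidermal growth factor receptor, and the antibody AIIB2 acts against beta1 integrin. The remaining sample carried dominant-negative Rap1, a form of a small GTPase that blocks the normal protein. The doses and times, and which samples received the vehicle that the series' design mentions, were not stated in the labels used here.

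Entry into mitosis is driven by CDK1 with its cyclins, and the spindle checkpoint holds the cell until every chromosome is attached. The anaphase-promoting complex with CDC20 then marks securin and the cyclins for destruction, and kinesins and the midzone proteins complete the division. Many of these genes are transcribed late in the cell cycle, through the MuvB complex and FOXM1 at a promoter element called CHR and through NF-Y at CCAAT boxes. In bulk RNA, fewer dividing cells and less of each RNA per dividing cell cannot be told apart.

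The values came as 2 tables, 1 for each of 2 array types. Counts of order and overlap below use the values as deposited, so across the tables they also compare array types. The first table held all 3 T4 samples, S1 samples 1 and 2, and from T4R the agents GM6001, MMPs and ADAMs, and LY294002. The second held S1 sample 3 and the other 6 T4R samples, and no T4 sample. The table was therefore a term in the fit, and fits without it are named where given. The table term passed the threshold for 0 of the 40 genes in limma, against 1634 of the 9111 genes tested (17.9%). Median levels per sample lay between 7.33 and 7.40. Epithelial keratins were high in every sample, KRT5 between 13.1 and 14.1 and KRT14 between 13.6 and 14.5, whereas KRT19 lay near the floor at 6.52 to 6.78. The labels do not state separate cultures for samples of a line, so the spread within a line may be technical. The fit took the 9 T4R samples, each with another agent, as 1 group with a shared estimate of the spread. That estimate therefore also holds differences between agents, and p-values reflect only the spread among the samples at hand.

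Promoter sequence was available for 33 of the 40 genes in RefSeq's table (GRCh38.p14), which covers 250 bases before to 50 bases after each gene start. The entries for AURKA, BIRC5, BUB3, FOXM1, TPX2, TTK and UBE2C were not found there. The CHR core was searched as TTTGAA or TTCGAA on either strand. It was present in 24 of 33 genes, 72.7% with an exact 95% binomial interval of 54.5% to 86.7%. The same letters were found in 19.5% of the 27305 genes of the table and in 16.0% of the tested genes with a promoter. CCAAT, on either strand, was present in 87.9% of the mitosis genes and 39.7% of all genes. Both motifs together were present in 69.7% and 7.85%, respectively. Within 60 bases before the start, 16 of the 43 promoters of these genes held the CHR core (37.2%), against 3.17% of all promoters. AURKB, CCNA2, CCNB1, CENPE, KIF20A, KIF2C, MELK, NEK2 and PTTG1 had no CHR core anywhere from 250 bases before to 50 bases after the start. A match describes these letters and is not a site shown to be bound.

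**Figure D1:**
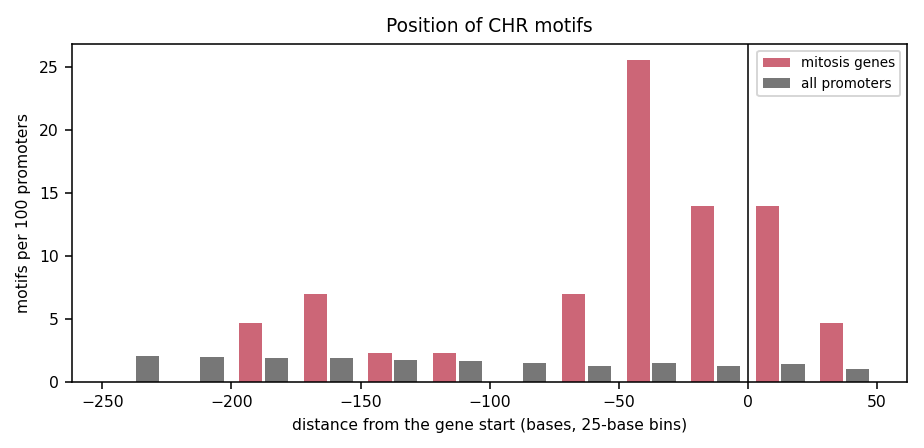
Matches to the CHR core per 100 promoters in bins of 25 bases, by distance from the gene start, for the 43 promoters of the mitosis genes and for all promoters of the RefSeq table. The mitosis genes stand highest in the bin from 50 to 25 bases before the start, where all promoters show no such peak.

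The 200 bases before the start are printed for the 4 genes with the largest T4 difference among those given sample by sample that hold the CHR core, CDKN3, CDC20, CENPA and DLGAP5. MKI67 and KIF11 were added after their values were seen, as the gene that fell furthest in T4R and as a gene that holds the motifs and hardly differed between the groups. Capitals mark the CHR core (TTTGAA, or TTCAAA on the other strand) and CCAAT (or ATTGG on the other strand). The regions are chr14:54396807-54397006 on the plus strand for CDKN3, chr1:43358781-43358980 plus for CDC20, chr2:26785856-26786055 plus for CENPA, chr14:55191586-55191785 minus for DLGAP5, chr10:128126424-128126623 minus for MKI67 and chr10:92592930-92593129 plus for KIF11.
CDKN3: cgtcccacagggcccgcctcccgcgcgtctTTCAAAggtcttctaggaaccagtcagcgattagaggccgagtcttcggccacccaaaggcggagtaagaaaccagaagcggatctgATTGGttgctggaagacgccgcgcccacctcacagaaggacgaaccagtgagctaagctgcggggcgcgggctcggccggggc
CDC20: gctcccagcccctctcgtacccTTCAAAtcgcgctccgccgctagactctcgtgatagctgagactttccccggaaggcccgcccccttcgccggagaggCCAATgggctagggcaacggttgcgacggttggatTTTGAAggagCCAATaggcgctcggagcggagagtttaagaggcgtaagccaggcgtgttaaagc
CENPA: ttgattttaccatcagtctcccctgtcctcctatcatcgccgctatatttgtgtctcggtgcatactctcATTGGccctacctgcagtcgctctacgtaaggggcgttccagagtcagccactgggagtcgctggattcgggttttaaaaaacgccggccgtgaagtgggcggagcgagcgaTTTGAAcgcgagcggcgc
DLGAP5: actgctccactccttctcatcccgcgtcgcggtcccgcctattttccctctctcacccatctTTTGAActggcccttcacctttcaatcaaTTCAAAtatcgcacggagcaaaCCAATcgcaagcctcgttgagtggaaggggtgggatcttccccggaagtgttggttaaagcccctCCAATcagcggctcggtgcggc
MKI67: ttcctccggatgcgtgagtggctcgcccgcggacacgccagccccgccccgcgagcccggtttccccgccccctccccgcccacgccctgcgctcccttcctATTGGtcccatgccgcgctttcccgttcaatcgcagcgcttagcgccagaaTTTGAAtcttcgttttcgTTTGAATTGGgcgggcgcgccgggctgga
KIF11: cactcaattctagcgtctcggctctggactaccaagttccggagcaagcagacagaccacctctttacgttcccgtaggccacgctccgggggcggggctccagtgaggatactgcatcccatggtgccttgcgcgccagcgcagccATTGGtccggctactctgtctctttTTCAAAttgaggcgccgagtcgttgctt
In CENPA the CHR core begins 18 bases before the start, in KIF11 28 bases and in CDC20 65 bases. In MKI67 cores begin 47 and 29 bases before the start, and the latter overlaps the ATTGG that begins 24 bases before it. The core of CDKN3 lies further out, 170 bases before the start.

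In T4 against S1, 19 of the 40 mitosis genes rose and 1, the phosphatase CDC25B, fell in limma at an adjusted p under 0.05 over all 9111 genes tested, and 20 did not pass. Over all genes tested, 26.9% passed, 14.6% higher in T4 and 12.3% lower. The median difference of the 40 genes was 1.24 on the log2 scale, against 0.01 for all tested genes, and 39 of 40 differences were above 0. All 3 T4 samples lay above all 3 S1 samples for 29 genes (19.7% of all tested genes), and below them for CDC25B (17.5%). The S1 and T4 samples carry the same numbers, and a fit with the sample number and the table as blocks called 37 genes, 36 higher and 1 lower, against 40.2% of all tested genes. In that fit the 17 added genes had adjusted p-values of up to 0.0130, and BUB3, KIF11 and PTTG1 did not pass. It rests on 1 residual degree of freedom and on the 2 numbers whose S1 and T4 samples share a table. A block on the sample number without the table called 35 genes, against 19.6% of all tested genes, and left out CDC25B and AURKA as well.

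Single libraries moved the count of called genes. Without S1 sample 2 it was 4 (CDKN3, CENPA, KIF2C and PLK1), without T4 sample 3 it was 6 and without T4 sample 1 it was 10. Without dominant-negative Rap1, which enters this comparison only through the shared estimates of the spread and of the table term, it was 35. All genes called in these fits made up 18.5%, 22.9%, 22.8% and 30.6% of those tested, in the same order. CDKN3, CENPA and KIF2C passed in T4 against S1 under every alternative run. The calls of CCNA2 and HMMR, with adjusted p-values of 0.0454 and 0.0458 in limma, were each lost in 16 of 29 alternatives, most of them the omission of a single sample. KIF23 lost its call in 10, and each other gene called in T4 against S1 in at most 6.

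**Figure D2:**
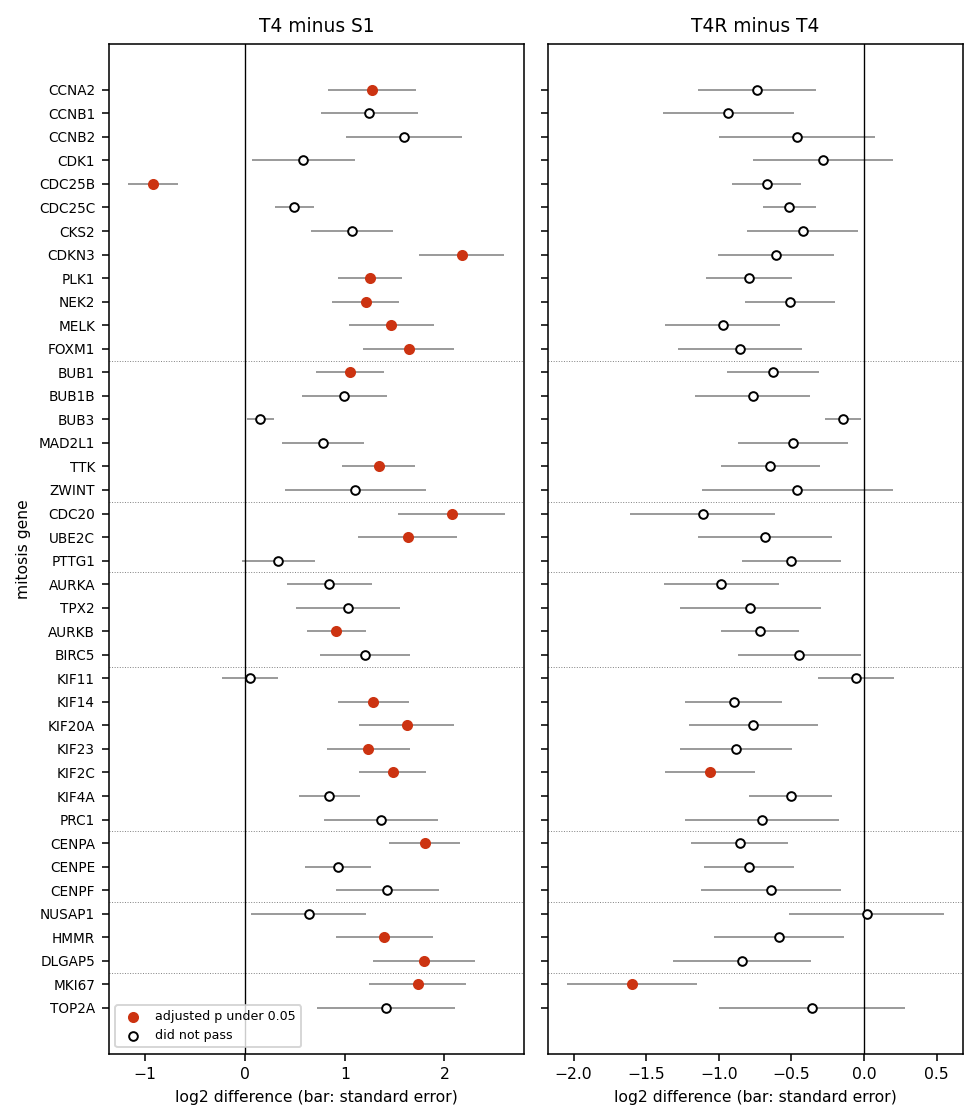
Difference of each mitosis gene in T4 minus S1 (left) and T4R minus T4 (right) on the log2 scale, with its standard error from limma, grouped by role. Filled points passed an adjusted p of 0.05, 20 on the left and 2 on the right.

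In T4R, levels lay between those of T4 and S1 for most of these genes, and few differences passed. Against T4, 2 genes fell, MKI67 and KIF2C, and none rose. Over all genes tested 14.9% passed, 6.46% higher and 8.44% lower. The median difference was -0.68, and 39 of 40 differences lay below 0. At an unadjusted p under 0.05 there were 13 genes, all lower in T4R. The share of all genes at that p was not counted, here or for the unadjusted counts below, so these counts have no background beside them. Against S1, CDKN3 and CENPA were higher in T4R and CDC25B was lower, against 11.8% and 11.4% of all genes and 23.2% in either direction. The median difference from S1 was 0.48. The comparisons share samples, T4 or T4R or S1, so their values are given side by side and not as separate evidence.

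The T4R calls against T4 also turned on single libraries. In limma, 0 genes passed without T4 sample 1, T4 sample 3, MMPs and ADAMs or LY294002. In the same order, 10, 2, 12 and 9 genes had an unadjusted p under 0.05. Of all genes, 10.5%, 10.7%, 10.4% and 12.1% passed in these fits, against 14.9% with all samples. Without GM6001 only KIF2C passed (11% of all genes), and without S1 sample 3 only CDC25B did (14.9%). Without T4 sample 2 there were 7, against 13.1% of all genes. Without dominant-negative Rap1 there were 7 genes against T4, all lower (AURKA, CDC25C, CENPA, CENPE, KIF14, KIF2C and MKI67), and 17 against S1, 16 of them higher. In that fit 17.5% of all genes passed against T4 in either direction, the same share as 7 of 40, and 888 of the 9111 passed as lower. Against S1, 26.4% passed in either direction, and 1234 of the 9111 passed as higher. All T4R samples lay below all T4 samples for CDC25C, KIF2C and PTTG1, against 8.41% of all genes. The 8 T4R samples without dominant-negative Rap1 lay above all S1 samples for 16 genes, TOP2A, NUSAP1 and PLK1 among them (9.88% of all genes). The T4R samples of the first table lay below all T4 samples for 17 genes (18.6% of all genes), and above S1 samples 1 and 2 for 31 (29.2%).

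The dominant-negative Rap1 sample had the lowest level of the 9 T4R samples for 39 of 40 genes, CDC25B being the exception, against 18.7% of all genes tested. It was the lowest of all 15 samples for 29 genes (9.25% of all genes), and below all 3 S1 samples for 30 (29.2%). For 20 genes it lay at least 2-fold below the lowest of the other 8 T4R samples, which held for 0.384% of all genes. Its difference from the mean of those 8 samples had a median of -1.45, and of -1.43 against those of its own table. It is 1 sample, so the difference carries no test. The fibroblast genes DCN and PDGFRA were highest in this sample, at 9.57 and 7.71. The 7 fibroblast genes summed to 2105 on the linear scale there, against 1301 to 2430 over all T4R samples, 1082 to 1154 in S1 and 1220 to 1387 in T4. COL1A1 lay at 9.30 there, below the T4R mean of 9.72. COL1A2, COL3A1 and PDGFRB lay at 7.14, 6.96 and 7.13 in this sample, below the sample medians. LUM, at 6.65, was also at its highest of all 15 samples there, though below the sample medians. Of the epithelial genes, the cadherin CDH1 was at 9.34, its lowest of all 15 samples (T4R mean 10.70), and EPCAM at 7.51 (T4R mean 8.37). The keratin KRT18 was at 11.57 (T4R mean 10.75) and KRT19 at 6.69 (T4R mean 6.65). KRT5, KRT14 and KRT8 were at 13.47, 13.97 and 9.36 (T4R means 13.76, 14.20 and 9.60). The 7 epithelial genes summed to 32067 in this sample, the lowest of the T4R samples (32067 to 48557). Their sums were 30022.5 to 33648.1 in S1 and 25692.6 to 33079.6 in T4. The leukocyte genes summed to 691 in this sample, against 623 to 720 over all T4R samples and 615 to 898 over S1 and T4. The endothelial genes summed to 695, the highest of the T4R samples (599 to 695), against 585 to 731 over S1 and T4. Their part in the result was not tested.

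**Figure D3:**
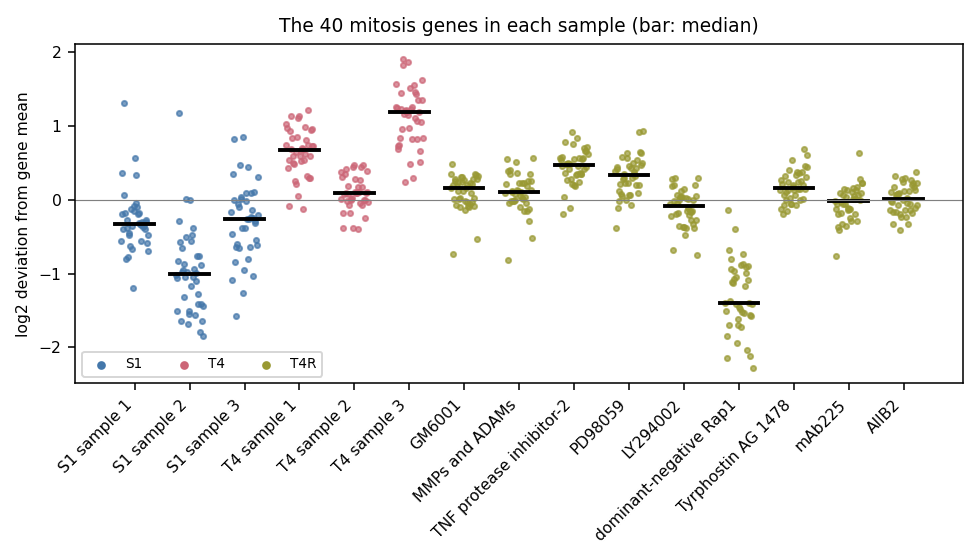
Deviation of each of the 40 mitosis genes from its own mean over 15 samples, on the log2 scale, in each sample, with the median as a bar. The median was 1.19 in T4 sample 3 and -1.40 in dominant-negative Rap1, the extremes, and lay between -0.09 and 0.47 in the other 8 T4R samples.

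The median SD over the mitosis genes was 0.23 in the other 8 T4R samples and 0.54 with dominant-negative Rap1, against 0.47 in S1 and 0.55 in T4. Over all tested genes it was 0.16 in the same 8 samples and 0.18 in all 9. After the table term was removed, the median difference from the T4 mean was -0.23 with TNF protease inhibitor-2 and -0.35 with PD98059. It was -0.43 with Tyrphostin AG 1478, -0.52 with GM6001 and -0.55 with MMPs and ADAMs. It was -0.64 with AIIB2, -0.71 with mAb225 and -0.75 with LY294002. Levels 2-fold or more below the T4 mean were found for 8 genes with LY294002 (3.2% of all genes), 5 with mAb225 (3.14%) and 3 with AIIB2 (2.81%). There were 2 such genes with GM6001 (2.33%), MMPs and ADAMs (2.63%) and Tyrphostin AG 1478 (3.07%), and 1 with TNF protease inhibitor-2 (2.85%) and PD98059 (3.26%). With dominant-negative Rap1 the count was 37, against 4.18%. With the table term removed, MKI67 was the gene furthest below the T4 mean with each of the 9 agents. In the values as deposited this held only for the 3 agents of the first table, and the genes were CCNB1, CCNB2, AURKA or CENPA for those of the second. Doses are unknown and each agent is 1 sample, so no difference between agents was tested.

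The samples of each line also differed. T4 sample 2 was the lowest T4 sample for all 40 genes (29.6% of all tested genes), and T4 sample 3 the highest for 37 (43.2%), with CKS2, PTTG1 and UBE2C as exceptions. The median difference of sample 3 from sample 2 was 1.05 over the mitosis genes and 0.00 over all genes. S1 sample 2 was below S1 sample 1 for 39 genes (49.0%), by a median of 0.59. S1 sample 3, the only S1 sample of the second table, was the highest S1 sample for 20 genes (44.5%).

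**Figure D4:**
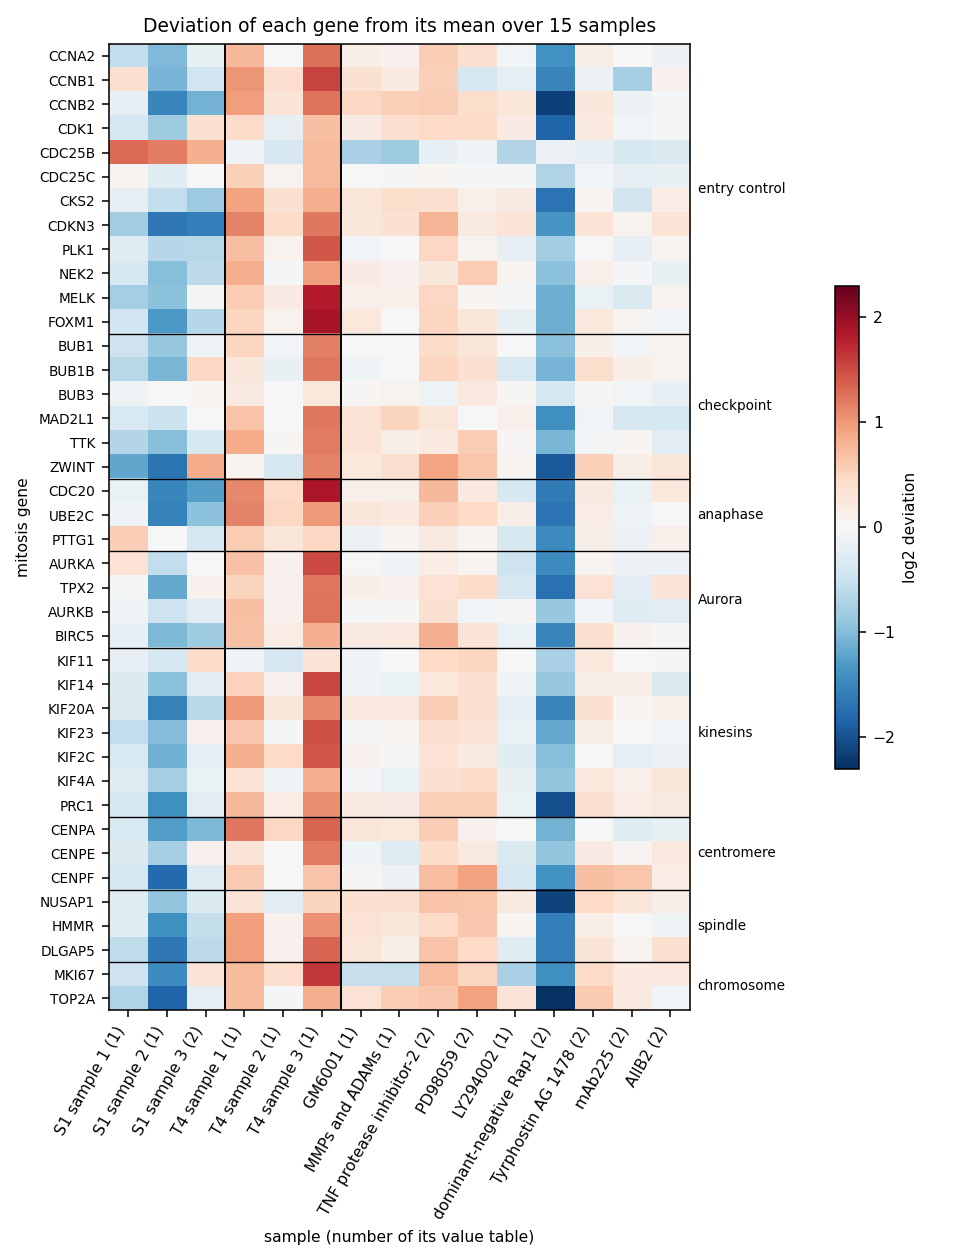
Deviation of each mitosis gene (rows, grouped by role) from its mean over the 15 samples (columns, with the number of the value table), on a log2 colour scale. S1 sample 2 and dominant-negative Rap1 are blue for nearly all genes, T4 sample 3 is red, and CDC25B runs the other way in S1.

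Of the 12 genes that control entry into mitosis, 6 rose in T4 (CCNA2, CDKN3, PLK1, NEK2, MELK and FOXM1) and CDC25B fell. CDKN3 encodes a phosphatase that acts on cyclin-dependent kinases. It measured 8.64, 7.80 and 7.87 in S1 samples 1 to 3 and 10.58, 9.86 and 10.66 in T4. In T4R it ran from 8.08 with dominant-negative Rap1 through a median of 9.73 to 10.22 with TNF protease inhibitor-2. Every T4 sample lay above every S1 sample, and 8 of 9 T4R samples did so too. The difference of T4 from S1 was 2.17 ± 0.43 (SE, adjusted p = 0.00215 in limma), 4.51-fold. T4R stayed 1.57 ± 0.35 above S1 (adjusted p = 0.00584), and its difference from T4 was -0.61 ± 0.40 (adjusted p = 0.349).

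CKS2 is a small protein that binds cyclin-dependent kinases. Its levels were 10.75, 10.37 and 10.09 in S1 and 11.87, 11.29 and 11.77 in T4. T4R samples ran from 9.25 to 11.34 with a median of 11.12, the lowest again dominant-negative Rap1. T4 and S1 did not overlap, but the difference of 1.07 ± 0.41 did not pass (adjusted p = 0.0692 in limma). MELK, a kinase of dividing cells, measured 7.73, 7.56 and 8.45 in S1 and 9.10, 8.70 and 10.32 in T4. T4R ran from 7.39 to 8.99 with a median of 8.56, mostly below the T4 samples. Its T4 difference was 1.47 ± 0.43 (adjusted p = 0.0210), and its T4R difference of -0.97 ± 0.40 from T4 did not pass (adjusted p = 0.121).

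CDC25B, a phosphatase that activates CDK1, was the only one of the 40 genes lower in T4 than in S1. It measured 9.995, 9.86 and 9.51 in S1, 8.60, 8.30 and 9.41 in T4, and 7.87 to 8.58 in T4R with a median of 8.36. Every T4 and every T4R sample lay below every S1 sample, and CDC25B was the only one of the 40 genes with all T4R below all S1 (7.46% of all genes). It fell by 0.92 ± 0.25 in T4 (adjusted p = 0.0155 in limma) and was 1.60 ± 0.21 lower in T4R than in S1 (difference -1.60, adjusted p = 0.000152), a call kept under every alternative. Against T4, its T4R difference of -0.67 ± 0.24 (adjusted p = 0.0731) lay on the same side as for most of the genes. In the block on sample number without the table, the T4 call was lost (adjusted p = 0.0828). CDK1, the kinase itself, differed by 0.59 ± 0.52 between T4 and S1 (adjusted p = 0.450), and its partner cyclins CCNB1 and CCNB2 by 1.25 ± 0.49 and 1.59 ± 0.58 (adjusted p = 0.0736 and 0.0566). Other probe sets of CDK1 differed by 0.98 and 0.89, and neither passed in a limma fit of all single-gene probe sets. CDC25C, related to CDC25B, differed by 0.49 ± 0.19 (adjusted p = 0.0761). With the sample number and table as blocks these 4 genes and CKS2 passed.

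Of 6 genes of the spindle checkpoint, BUB1 and TTK rose in T4 and the other 4 did not pass. TTK, the kinase MPS1 that starts the checkpoint signal, measured 7.20, 6.89 and 7.49 in S1 and 8.72, 7.90 and 9.06 in T4. T4R ran from 6.83 to 8.43 with a median of 7.91, and all but dominant-negative Rap1 lay above S1. TTK rose by 1.34 ± 0.37 in T4 (adjusted p = 0.0152 in limma), and BUB1, a checkpoint kinase, by 1.05 ± 0.34 (adjusted p = 0.0361). BUB1B, which inhibits the anaphase-promoting complex as BubR1, measured 7.47, 7.06 and 8.57 in S1 and 8.36, 7.92 and 9.30 in T4. In T4R it ran from 7.02 to 8.59 with a median of 8.19. Its S1 sample 3 lay above 2 T4 samples, and the difference of 0.99 ± 0.42 did not pass (adjusted p = 0.0993).

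BUB3 is a scaffold of the checkpoint complex. It measured 10.67, 10.81 and 10.84 in S1, 11.01, 10.81 and 11.03 in T4, and 10.40 to 11.03 in T4R with a median of 10.82. The groups overlapped, and T4 differed from S1 by 0.15 ± 0.13 (adjusted p = 0.450). MAD2L1 and ZWINT differed by 0.78 ± 0.41 and 1.11 ± 0.71 (adjusted p = 0.178 and 0.278). None of the 6 passed in T4R against T4 in limma, and 0 did at an unadjusted p under 0.05. Another probe set of BUB3, the one with the largest interquartile range, differed by -0.57 in T4R against T4 and passed (adjusted p = 0.0458).

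In the group that triggers anaphase, CDC20 and UBE2C rose in T4 and PTTG1 did not pass. CDC20, the activator of the anaphase-promoting complex, measured 9.23, 7.89 and 8.12 in S1 and 10.50, 9.83 and 11.25 in T4. T4R ran from 7.77 to 10.14 with a median of 9.50. The lines did not overlap, and S1 sample 1 lay above LY294002 and dominant-negative Rap1. CDC20 rose by 2.07 ± 0.54 (adjusted p = 0.0116 in limma), 4.21-fold, and T4R differed from T4 by -1.11 ± 0.50 (adjusted p = 0.160). UBE2C, the ubiquitin-conjugating enzyme of the complex, rose by 1.63 ± 0.50 (adjusted p = 0.0261). PTTG1 encodes securin, whose destruction at anaphase lets sister chromatids separate. It measured 12.15, 11.59 and 11.20 in S1, 12.19, 11.88 and 12.08 in T4 and 10.14 to 11.79 in T4R with a median of 11.65. T4 overlapped S1 and differed from it by 0.34 ± 0.37 (adjusted p = 0.552). Every T4R sample lay below every T4 sample, but that difference was -0.50 ± 0.34 after the table term (adjusted p = 0.369).

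Of the Aurora kinases and their partners, AURKB, the kinase of the chromosomal passenger complex, rose by 0.92 ± 0.29 (adjusted p = 0.0318 in limma). TPX2, which activates Aurora A on the spindle, measured 10.08, 8.95 and 10.21 in S1 and 10.64, 10.22 and 11.35 in T4. T4R ran from 8.40 to 10.55 with a median of 10.28. The lowest T4 sample lay just above the highest S1 sample, and the difference of 1.03 ± 0.52 did not pass (adjusted p = 0.163). BIRC5, survivin, measured 8.31, 7.47 and 7.70 in S1, 9.19, 8.68 and 9.32 in T4, and 6.99 to 9.34 in T4R with a median of 8.70. Its lines did not overlap and differed by 1.20 ± 0.45 (adjusted p = 0.0649). Other probe sets of BIRC5 differed by 0.97 and 0.88. With the probe set of largest interquartile range, or with the mean of all probe sets, BIRC5 passed in T4 against S1. AURKA, Aurora A, measured 9.61, 8.71 and 9.26 in S1, 9.95, 9.38 and 10.79 in T4, and 7.80 to 9.46 in T4R with a median of 9.18. T4R lay mostly at the level of S1, and its difference of -0.98 ± 0.40 from T4 did not pass in limma (adjusted p = 0.116). In the limma fit without dominant-negative Rap1 the difference was -0.94 ± 0.28 and passed (adjusted p = 0.0353).

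Of 7 kinesins and midzone proteins, KIF14, KIF20A, KIF23 and KIF2C rose in T4. KIF2C, a kinesin that takes microtubules apart at the centromere, measured 7.96, 7.21 and 8.08 in S1 and 9.12, 8.75 and 9.74 in T4. T4R ran from 7.32 to 8.65 with a median of 8.27. Every T4R and every S1 sample lay below every T4 sample. KIF2C rose by 1.48 ± 0.33 in T4 (adjusted p = 0.00510 in limma) and fell by 1.06 ± 0.31 in T4R against T4 (adjusted p = 0.0345). In the first table alone the T4R call was lost. KIF20A, needed for cytokinesis, measured 8.59, 7.37 and 8.28 in S1, 9.90, 9.18 and 10.02 in T4 and 7.39 to 9.49 in T4R with a median of 9.15. It rose by 1.62 ± 0.48 (adjusted p = 0.0220), with no overlap between the lines. PRC1, which bundles midzone microtubules, measured 8.90, 7.87 and 9.03 in S1, 10.02, 9.45 and 10.34 in T4 and 7.25 to 9.84 in T4R with a median of 9.48. The lines did not overlap, but its difference of 1.36 ± 0.57 did not pass (adjusted p = 0.0936). KIF11, the motor that separates the spindle poles, differed by 0.05 ± 0.28 (adjusted p = 0.923), although its promoter above holds both motifs.

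Among 3 centromere genes, CENPA rose. CENPA, the histone variant that marks the centromere, measured 8.46, 7.54 and 7.79 in S1 and 10.03, 9.29 and 10.16 in T4. T4R ran from 7.72 to 9.38 with a median of 8.82, and its 8 samples without dominant-negative Rap1 lay above all S1 samples. It rose by 1.80 ± 0.36 in T4 (adjusted p = 0.00232 in limma) and was 0.94 ± 0.30 higher in T4R than in S1 (adjusted p = 0.0342). That last call was lost in 8 of 28 alternatives, namely in each table alone, in both fits without the table term, and without S1 sample 2, S1 sample 3, GM6001 or MMPs and ADAMs. CENPF, a kinetochore protein, measured 8.50, 7.11 and 8.61 in S1, 9.49, 8.90 and 9.56 in T4 and 7.50 to 9.82 in T4R with a median of 9.07. No S1 sample reached T4, and the difference of 1.42 ± 0.52 missed the threshold (adjusted p = 0.0556).

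Of the spindle microtubule proteins, HMMR rose by 1.40 ± 0.48 (adjusted p = 0.0458 in limma) and DLGAP5 rose too, while NUSAP1 did not pass. DLGAP5, which stabilises spindle fibres, measured 8.12, 7.06 and 8.10 in S1, 9.66, 8.82 and 10.05 in T4 and 7.14 to 9.37 in T4R with a median of 8.99. T4 stood clear of S1, and it rose by 1.79 ± 0.51 (adjusted p = 0.0189 in limma). NUSAP1, which links microtubules to chromatin, measured 9.44, 8.87 and 9.43 in S1, 10.05, 9.50 and 10.26 in T4 and 7.63 to 10.40 in T4R with a median of 10.09. T4R overlapped T4, and their difference of 0.02 ± 0.53 (adjusted p = 0.987) was the only one above 0 among the 40.

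The 2 genes of chromosome structure were the proliferation marker MKI67, which coats mitotic chromosomes, and TOP2A, which untangles DNA. MKI67 measured 8.43, 7.47 and 9.21 in S1 and 9.63, 9.29 and 10.52 in T4. In T4R it was 8.38 with GM6001, 8.38 with MMPs and ADAMs, and 8.16 with LY294002 in the first table, and 7.49 to 9.62 in the second, with a median of 9.13 over all 9. The 3 of the first table lay below every T4 sample, and those of the second, which holds no T4 sample, overlapped T4. MKI67 rose by 1.73 ± 0.48 in T4 (adjusted p = 0.0168 in limma) and fell by 1.60 ± 0.45 in T4R (adjusted p = 0.0284), 3.03-fold, with the table term in the fit. In the first table alone the T4R difference was -1.51 ± 0.35 (adjusted p = 0.0276). Without the table term it did not pass. Other probe sets of MKI67 differed by 1.17, 0.50 and 0.50 in T4 against S1, and by -1.10, -0.37 and -0.43 in T4R against T4. With the mean of all probe sets neither call was kept, and the T4R call was lost in 10 of 27 alternatives. TOP2A measured 9.14, 7.996 and 9.63 in S1, 10.56, 9.80 and 10.67 in T4 and 7.56 to 10.76 in T4R with a median of 10.16. Its lines did not overlap, and the difference of 1.41 ± 0.69 did not pass (adjusted p = 0.147).

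**Figure D5:**
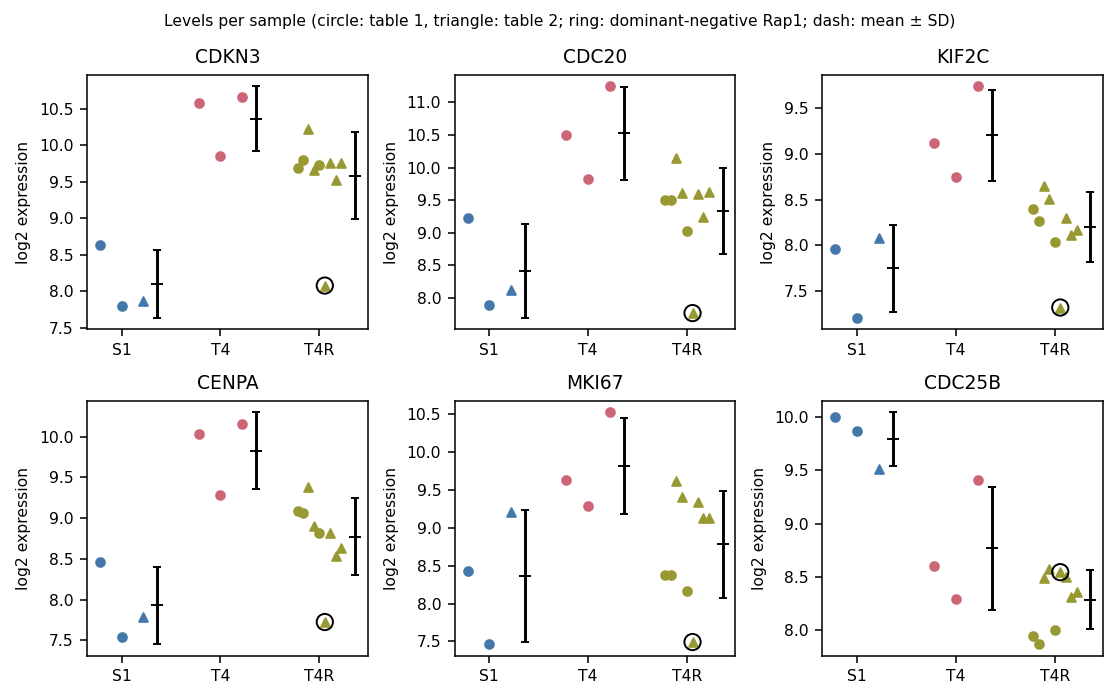
Levels on the log2 scale in each sample for CDKN3, CDC20, KIF2C, CENPA, MKI67 and CDC25B, with the group mean ± SD. Dominant-negative Rap1 (ringed) lies below the other T4R samples in 5 of the panels, and in the CDC25B panel S1 lies above T4R.

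Other genes of cell division were read from 4 lists, against the shares of all tested genes given above (14.6% higher and 12.3% lower in T4, 6.46% higher and 8.44% lower in T4R against T4). Of 34 further kinetochore, spindle and cytokinesis genes, 12 rose in T4 and none fell, led by CEP55 (1.74), ECT2 (1.66) and ASPM (1.64). PLK4, the kinase that duplicates centrioles, and TRIP13, which recycles the checkpoint complex, fell by 0.82 and 0.99 in T4R against T4. Of 17 condensin and cohesin genes, NCAPD2 rose by 0.79 in T4 and 4 fell, PDS5A by 1.07, SMC3 by 0.59, PDS5B by 0.49 and NIPBL by 0.35. In T4R against T4, 0 of the 17 passed in limma, with 3 at an unadjusted p under 0.05. Of 12 genes of the anaphase-promoting complex and its partners, 4 rose in T4 and CDC23 fell. UBE2S, the enzyme that extends the ubiquitin chains, rose by 0.88 in T4 and fell by 0.93 in T4R, and FBXO5, an inhibitor of the complex, rose by 0.69 and fell by 0.55.

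Of 16 genes of the transcriptional control described above, 3 rose in T4 and 2 fell, against 26.9% of all genes in either direction. TFDP1, the partner of E2F factors, rose by 1.18 ± 0.19 (adjusted p = 0.000616 in limma) and RB1 fell by 0.59 ± 0.14 (adjusted p = 0.00600). In T4R against T4, NFYC, RBL2 and RBBP4 rose, by 0.45, 0.51 and 0.45. With the mean of all probe sets, or the probe set of largest interquartile range, 0 genes of the 4 lists passed as higher in this comparison. CDKN1A, an inhibitor of cyclin-dependent kinases looked up after its values were seen, differed by -1.75 ± 0.61 in T4R against T4 (adjusted p = 0.0729). The median T4 difference was 0.62, 0.11, 0.14 and 0.10 over the 4 lists in the order given, against 1.24 for the 40 genes.

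The T4 differences of the mitosis genes with and without the promoter motif were set side by side. The median was 1.25 for the 24 genes with the CHR core and 1.25 for the 9 without. Of these, 10 of 24 and 6 of 9 were higher in T4 in limma. Over all tested genes, 17.4% of the 1200 with the core were higher in T4, against 14.6% of the 6301 without it.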

How the data were processed

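Trizol-extracted total RNA carried a biotin label, per the labels' protocols, on Affymetrix arrays of the U133A kind. The arrays were of 2 types, with a table for each. The deposited values are on a log2 scale, as their range of 6.21 to 14.5 shows. How the authors summarised and normalized them, and whether both tables were treated together, is not given in the sources used here. Of 22215 probe sets, 19707 had 1 gene by the platform annotation, 614 several, 1706 none and 188 different genes in the annotations. Symbols were updated through RefSeq. For each of 12149 genes the probe set of highest mean was used. Leaving out the lowest 25% by mean left 9111. Of the 40 members, 16 had several probe sets, and no second one passed in the opposite direction.

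Differences were fitted with limma 3.58.1 (lmFit, eBayes) in R 4.3.3 on all 15 samples with group and table as terms, with p-values (2-sided) adjusted by Benjamini-Hochberg across these 9111 genes and called under 0.05. The fit was run on simulated data in which genes varied independently and changes were set in T4 only. That simulation held no genes that vary together and no outlying T4R sample, so it does not cover those features of the data. T4R was fitted as 1 group of different agents, and each agent alone is a single sample and carries no test. S1 and T4 samples share numbers. Deviations of same-numbered samples correlated at 0.28, 0.31 and 0.39 over genes, which met the rule for a block, although S1 sample 1 with T4 sample 2 and S1 sample 2 with T4 sample 1 gave 0.31 and 0.29. Members and lists were chosen with earlier results of these data known. Per role, the genes given by sample had the highest mean, the largest T4 or T4R difference, or a call opposite to their group, with MKI67 in any case. The number of arrays limits the precision.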

Additional observations from a re-analysis of the deposited data

Results flagged for a closer look

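In 29 of the 40 mitosis genes, 1 of the 9 T4R samples, dominant-negative Rap1, stood far below the others. The gap to the nearest sample took up more than 0.493 of the whole range, the 95% critical value of Dixon's test for 9 samples. The levels (log2) of that sample were as follows. Among the entry genes they were CCNA2 (7.50), CCNB2 (7.56), CDK1 (7.64), CDC25C (6.86), CKS2 (9.25), CDKN3 (8.08), NEK2 (7.23), MELK (7.39) and FOXM1 (7.03). Among the checkpoint and anaphase genes they were BUB1 (6.77), MAD2L1 (7.72), TTK (6.83), ZWINT (7.54), CDC20 (7.77), UBE2C (8.41) and PTTG1 (10.14). Among the Aurora partners, kinesins, spindle and chromosome genes they were AURKA (7.80), TPX2 (8.40), BIRC5 (6.99), KIF11 (7.32), KIF20A (7.39), KIF23 (6.78), KIF2C (7.32), KIF4A (7.04), PRC1 (7.25), NUSAP1 (7.63), HMMR (7.96), DLGAP5 (7.14) and TOP2A (7.56). Chance marks about 1 in 20 groups in this way. Over all 9111 tested genes, 991 (10.9%) had a T4R sample standing apart, in either direction, against 72.5% of the mitosis genes. As a share of the range the gap was largest for NUSAP1 (0.811), at 7.63 against 9.88 in the next T4R sample, and smallest for MELK (0.493), at 7.39 against 8.18. As the mitosis genes vary together, the 29 genes are not separate observations. The cause was not tested.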

How the results depend on the processing

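Of 40 mitosis genes, 20 were called in T4 against S1, 2 in T4R against T4 and 3 in T4R against S1. Leaving out each sample in turn gave 4 to 35, 0 to 7 and 2 to 17. In that order, the first table alone gave 33, 1 and 7, array weights 35, 11 and 27, and the fit without dominant-negative Rap1, S1 sample 3 and T4 sample 3 gave 34, 4 and 25. Only the groups compared gave 10 in T4 against S1 (20.9% of all genes) and 1 in T4R against T4 (13%). In the second table alone, which holds 1 S1 sample, the median difference of T4R from S1 was 0.21. The share of all genes called moved too, to 30.8%, 15.3% and 20% in the first table alone, 45.9%, 34.7% and 42.3% with array weights, and 34.0%, 19.6% and 30.4% without those samples. The replicate block gave 37 with the table block (40.2% of all genes) and 35 without it (19.6%) in T4 against S1. In T4R against T4, the mean of all probe sets gave 1, no table block 6, and quantile normalization of all samples without that block gave 5. Of all genes, 14.9%, 16.7% and 16.9% passed in these fits, respectively. Of 79 other cell division genes, 27, 7 and 15 were called, against 26.9%, 14.9% and 23.2% of all genes. Leaving out each sample gave 13 to 36, 2 to 14 and 8 to 24, and array weights gave 49, 19 and 40. In T4 against S1, only the groups compared gave 15 (20.9% of all genes) and the replicate block with the table block 48 (40.2%). In T4R against T4, no filter gave 3, choosing probe sets by interquartile range 4, the mean of all probe sets 4, the random table block 11, no table block 14 and quantile normalization of all samples without that block 13. Without the 3 samples together, 28 were called in T4R against S1. No called gene changed sign under any alternative run. The cause of these changes was not tested. The share of promoters with the CHR core was 66.7% with TTTGAA alone and 60.6% in the last 100 bases of the window, against 72.7%. Signal over background could not be read, since no detection calls were used, and each agent is 1 sample.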
